A study of Mus musculus with 12 samples.

Results

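Lyz2 and Lyz1 are the 2 lysozyme genes described here, of 56350 genes in a table of read counts from mouse bone marrow cells. They were picked by symbol with their counts in these libraries already known, so their levels are given as a description and carry no test. By the series' design RNA was sequenced from 12 mice in 4 groups of 3: combination, 5-azacitidine, PD-901 and vehicle. All of the mice were Shp2E76K/+;LysM-Cre+ C57BL/6 mice of either sex aged 12 to 14 weeks, so every group, vehicle included, carried the activated allele of the phosphatase Shp2. The series treats them as mice with juvenile myelomonocytic leukaemia (JMML) and asks how the MEK inhibitor PD0325901 (PD-901) acts together with the hypomethylating nucleoside 5-azacitidine. PD-901 mice received 20 oral doses of 5 mg/kg over 4 weeks, 5-azacitidine mice 5 intraperitoneal doses of 5 mg/kg in the same time, combination mice both, and vehicle mice neither drug.

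Lysozymes are secreted enzymes that cut the peptidoglycan of bacterial walls. In mice Lyz2 encodes lysozyme M, the form of macrophages, monocytes and neutrophils, and Lyz1 encodes lysozyme P, known best from the Paneth cells of the small intestine. LysM-Cre is a Cre recombinase placed in the Lyz2 locus, so the Shp2 allele is switched on where the Lyz2 promoter is active, and the Lyz2 copy that carries Cre no longer makes lysozyme. The labels do not give the number of Cre copies in a mouse, and the level of Lyz2 RNA does not show in which cells, or in what share of them, the allele was recombined.

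Both genes lie on the minus strand of chromosome 10 (mm10), Lyz2 (ENSMUSG00000069516.8) at 117277331 to 117282321 and Lyz1 (ENSMUSG00000069515.6) at 117287797 to 117292868, with 5475 bases between them. Each has 4 exons, with exon lengths of 215, 165, 79 and 857 bases in Lyz2 and 166, 165, 79 and 853 bases in Lyz1. The coding sequences are shown because they decide whether a read can be given to 1 gene and not to the other, and capitals mark the bases at which the genes differ (GENCODE M21, GRCm38, spliced, 5′ to 3′). Shown are the first 300 coding bases, which span exons from chr10:117280642-117282242 in Lyz2 and chr10:117291030-117292838 in Lyz1, minus strand.
Lyz2 coding bases: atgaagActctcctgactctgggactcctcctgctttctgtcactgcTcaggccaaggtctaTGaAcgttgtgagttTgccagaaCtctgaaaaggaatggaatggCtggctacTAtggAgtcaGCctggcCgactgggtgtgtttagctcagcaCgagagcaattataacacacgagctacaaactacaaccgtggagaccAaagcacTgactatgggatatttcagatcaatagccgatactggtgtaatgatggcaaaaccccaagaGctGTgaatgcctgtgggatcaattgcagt
Lyz1 coding bases: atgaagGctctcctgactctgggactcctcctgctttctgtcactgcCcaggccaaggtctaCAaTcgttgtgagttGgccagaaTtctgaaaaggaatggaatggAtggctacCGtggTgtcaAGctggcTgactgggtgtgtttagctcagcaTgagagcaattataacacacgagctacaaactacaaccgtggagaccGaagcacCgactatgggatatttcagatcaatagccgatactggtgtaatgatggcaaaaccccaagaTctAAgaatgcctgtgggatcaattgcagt
The stretch shown holds 20 differences. Over all 444 coding bases 22 differed, which makes the sequences 95.0% identical, with the longest identical stretch at 118 bases. Of these differences 6 fell on the first base of a codon, 6 on the middle base and 10 on the last. The whole transcripts were 92.0% identical in a global alignment. Reads that lie wholly in an identical stretch cannot be given to either gene from their sequence, so the split of counts between Lyz2 and Lyz1 is uncertain to that extent.

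The stretches before the start sites are shown because the RNA levels of the genes went separate ways across the libraries. They run from base 250 to base 51 before the RefSeq starts (GRCm38.p6, minus strand, Lyz2 chr10:117282323-117282522 and Lyz1 chr10:117292919-117293118), and capitals again mark the positions that differ when the windows are laid side by side without gaps. For Lyz2 the RefSeq start lies within the first GENCODE exon, so its window ends next to the GENCODE start at 117282321. For Lyz1 the RefSeq and GENCODE starts coincide, so the windows differ in their distance from the GENCODE starts.
Lyz2 upstream: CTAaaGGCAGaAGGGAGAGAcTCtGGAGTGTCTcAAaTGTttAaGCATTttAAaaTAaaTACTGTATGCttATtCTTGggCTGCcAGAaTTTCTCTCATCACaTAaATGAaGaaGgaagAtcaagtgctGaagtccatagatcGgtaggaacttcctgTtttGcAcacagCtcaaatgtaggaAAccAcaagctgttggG
Lyz1 upstream: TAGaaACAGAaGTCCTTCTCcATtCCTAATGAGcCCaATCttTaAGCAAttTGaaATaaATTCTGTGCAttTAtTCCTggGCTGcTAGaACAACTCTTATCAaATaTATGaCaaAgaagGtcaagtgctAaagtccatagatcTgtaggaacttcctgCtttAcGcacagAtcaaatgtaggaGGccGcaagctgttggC
The windows differed at 77 of the first 100 positions and at 21 of the 100 positions nearer the gene, a count that depends on the ungapped layout. Aligned with gaps the windows were 74.3% identical, against 51.0% without. Motifs were searched on both strands for the myeloid factors PU.1 (GAGGAA), C/EBP (TTNNGNAA) and RUNX (TGTGGT). Lyz2 held 1 RUNX match, on the opposite strand at position 185 of the window and Lyz1 none. Lyz1 held 1 C/EBP match at position 42 and Lyz2 none, and neither held a PU.1 match. Of 32851 RefSeq promoter windows of the same length, 11.6% held the RUNX letters, 32.3% the C/EBP letters and 18.8% the PU.1 letters. A match is a run of letters and not a site in use. Other forms of these motifs, and the bases between the windows and the starts, were not searched. The lack of a match therefore does not show that a site is absent.

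Total counts ran from 15356919 to 27148190 per library, and levels are given as CPM, counts divided by library size and scaled by the TMM method. The marrow showed the genes of its myeloid cells in every library: the neutrophil secondary granule list summed to 23850 to 51520 CPM, the neutrophil primary granule list to 4935 to 10700 CPM and the monocyte list to 1958 to 5537 CPM. Markers of Paneth cells, the textbook source of Lyz1, summed to at most 1.14 CPM in any library, and Defa17 had 0 counts throughout. In such bulk samples fewer cells of a type and less RNA per cell cannot be told apart.

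The libraries of a group were not alike in RNA tied to sex, which the labels do not give by mouse. Xist, which coats the silenced X of female cells, stood at 3.82, 1.73 and 7.14 CPM in the combination libraries, 1.32, 237.7 and 0.556 CPM in the 5-azacitidine libraries, 1.19, 343 and 148 CPM in the PD-901 libraries and 138, 725 and 158 CPM in the vehicle libraries. The sum of the Y-linked genes Ddx3y, Eif2s3y, Kdm5d and Uty was 0.148 CPM in vehicle replicate 2 and 56.4 to 229 CPM in the other libraries. Thus 5 libraries held Xist above 100 CPM together with Y-linked RNA, namely 5-azacitidine replicate 2, PD-901 replicates 2 and 3 and vehicle replicates 1 and 3. These libraries showed RNA tied to female and to male cells at once. Whether a library holds cells of more than 1 mouse was not tested. Each library is called a mouse here only because the series' design does so. For any gene the difference between combination and vehicle cannot be told apart from this difference in Xist, since the 2 groups do not overlap in it. The 4 libraries lowest in Lyz2 were a pair with little Xist (combination replicates 1 and 2), 1 with Xist and no more than 3 Y-linked counts (vehicle replicate 2) and 1 with both (vehicle replicate 1).

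Lyz2 was among the most abundant RNAs of some mice and of middling abundance in others. In the combination libraries it stood at 44.9, 55.9 and 1151 CPM (417 ± 636, SD, n = 3). The 5-azacitidine libraries had 2773, 3389 and 1807 CPM (2656 ± 798). The PD-901 libraries had 4182, 699.6 and 2566 CPM (2483 ± 1743). The vehicle libraries had 172, 147 and 3228 CPM (1182 ± 1772). Replicates 1 and 2 of the combination and of vehicle were the 4 lowest libraries, and the third mouse of each of these groups stood far above its group mates. Since LysM-Cre sits in the Lyz2 locus, a level of Lyz2 RNA may reflect how many intact copies a mouse carried as well as how strongly they were expressed, which cannot be told apart here and was not tested.

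The rank of Lyz2 by CPM among all genes moved accordingly. It was number 54 in combination replicate 3, against 4901 and 4282 in the other combination libraries. In vehicle replicate 3 it was number 9, against 1251 and 1494 in the other vehicle libraries. Lyz2 ranked between 9 and 37 in the 5-azacitidine libraries and between 9 and 149 in the PD-901 libraries.

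By the mean of log2 CPM the groups ran from the combination (7.16) through vehicle (8.76) and PD-901 (10.94) to 5-azacitidine (11.33), and the neighbours in this order overlapped. The combination lay below vehicle by a log2 difference of -1.61, with a pooled SD of 2.56 within these groups. PD-901 lay above vehicle by 2.17 (pooled SD 2.01) and 5-azacitidine above vehicle by 2.57 (pooled SD 1.80), and in each case the groups overlapped. Against the single agents the combination differed by -3.78 (PD-901, pooled SD 2.07) and -4.17 (5-azacitidine, pooled SD 1.88). The combination and the 5-azacitidine libraries did not overlap in Lyz2. By the edgeR test, a different and stricter measure, 1.07% of all tested genes were lower in this contrast. The share of genes whose libraries do not overlap was not counted. Nothing is read from the separation, because the gene was chosen for its values. The difference of combination from vehicle was -3.11 without combination replicate 3 and -0.16 without vehicle replicate 3, so 1 library sets its size.

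**Figure D1:**
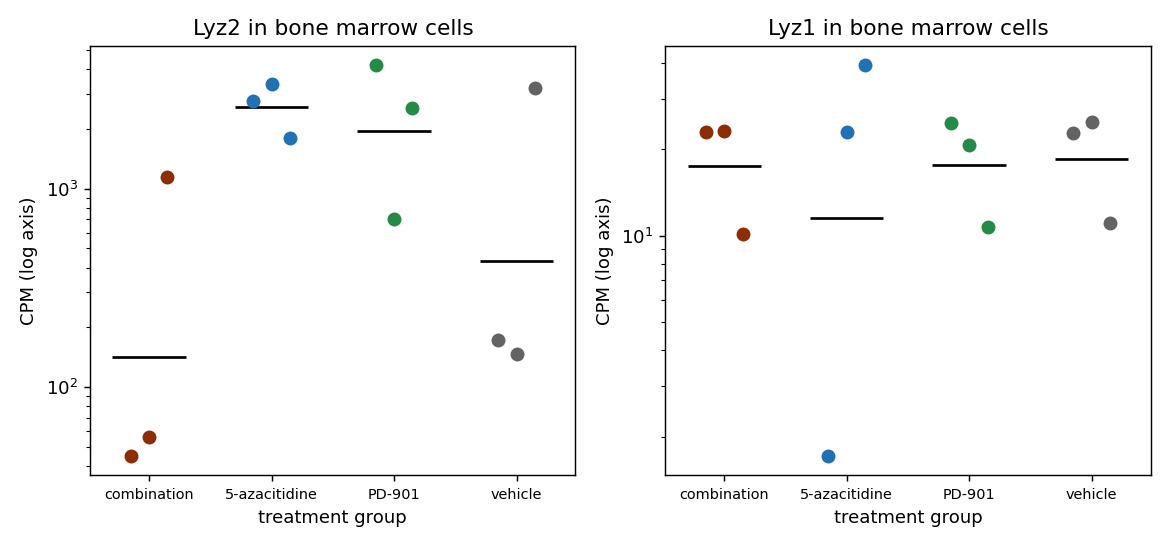
Level of Lyz2 (left) and Lyz1 (right) in CPM on a log axis, 1 point for each of the 12 libraries, with a bar at the mean of log2 CPM in each group of 3. Lyz2 spans 44.9 to 4182 CPM with combination and vehicle replicates 1 and 2 at the bottom, while Lyz1 lies between 10.2 and 39.1 CPM in 11 libraries and at 1.72 CPM in 5-azacitidine replicate 1.

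Lyz1 was expressed at a low level, with group means of 18.7 to 21.3 CPM and the widest spread in 5-azacitidine. It stood at 23.0, 23.1 and 10.2 CPM in the combination libraries (18.8 ± 7.43, SD, n = 3). The 5-azacitidine libraries had 1.72, 23.0 and 39.1 CPM (21.3 ± 18.8). The PD-901 libraries had 24.8, 20.6 and 10.7 CPM (18.7 ± 7.23), and the vehicle libraries had 22.8, 24.8 and 11.1 CPM (19.6 ± 7.41). All groups overlapped. The lowest library was 5-azacitidine replicate 1, which also had the lowest level of the mature neutrophil gene Il1b, at 9.82 CPM against 165 and 63.6 CPM in the other 5-azacitidine libraries. That library had the lowest total counts of all (15356919). It also had the fewest genes with a count (18897, against 23244 and 23996 in 5-azacitidine replicates 2 and 3). Whether the quality of the library bears on its Lyz1 level was not tested.

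By the mean of log2 CPM Lyz1 differed between the combination and vehicle by -0.07 (pooled SD 0.66) and between PD-901 and vehicle by -0.07 (pooled SD 0.63). The difference of 5-azacitidine from vehicle was -0.65 (pooled SD 1.74), and it was 0.70 without 5-azacitidine replicate 1 and 0.12 as a ratio of arithmetic means. None of these differences, taken over all libraries, exceeded the spread between mice of a group.

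The libraries low in Lyz2 were not low in Lyz1. In combination replicates 1 and 2 there were 452 and 453 Lyz1 counts beside 883 and 1096 Lyz2 counts, and combination replicate 3 had 258 Lyz1 counts beside 29180 Lyz2 counts. Vehicle replicates 1 and 2 had 415 and 503 Lyz1 counts beside 3131 and 2978 Lyz2 counts, and vehicle replicate 3 had 263 Lyz1 counts beside 76542 Lyz2 counts. In both groups the library highest in Lyz2 had the fewest counts of Lyz1. The single agents did not show this: 5-azacitidine replicate 2, the highest of its group in Lyz2, was the middle one in Lyz1 (23.0 CPM), and PD-901 replicate 1 was the highest of its group in both genes (4182 and 24.8 CPM).

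As a share of the counts of both genes, Lyz1 made up 33.9% (95% Wilson interval 31.4 to 36.4), 29.2% (27.0 to 31.6) and 0.876% (0.776 to 0.989) in the combination libraries. In the 5-azacitidine libraries the share was 0.0618% (0.0422 to 0.0905), 0.674% (0.609 to 0.746) and 2.12% (1.98 to 2.27). In the PD-901 libraries it was 0.589% (0.544 to 0.636), 2.86% (2.58 to 3.18) and 0.415% (0.370 to 0.465), and in the vehicle libraries 11.7% (10.7 to 12.8), 14.4% (13.3 to 15.7) and 0.342% (0.303 to 0.386). The intervals cover counting error only. In 5-azacitidine replicate 1 there were 26 Lyz1 counts beside 42045 Lyz2 counts. If all 26 came from Lyz2, the share of Lyz2 reads counted as Lyz1 in that library would be 0.0618% (interval up to 0.0905%). Per base of transcript, Lyz2 stood 1.88, 2.32 and 108-fold above Lyz1 in the combination libraries and 7.24, 5.68 and 279-fold in the vehicle libraries.

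**Figure D2:**
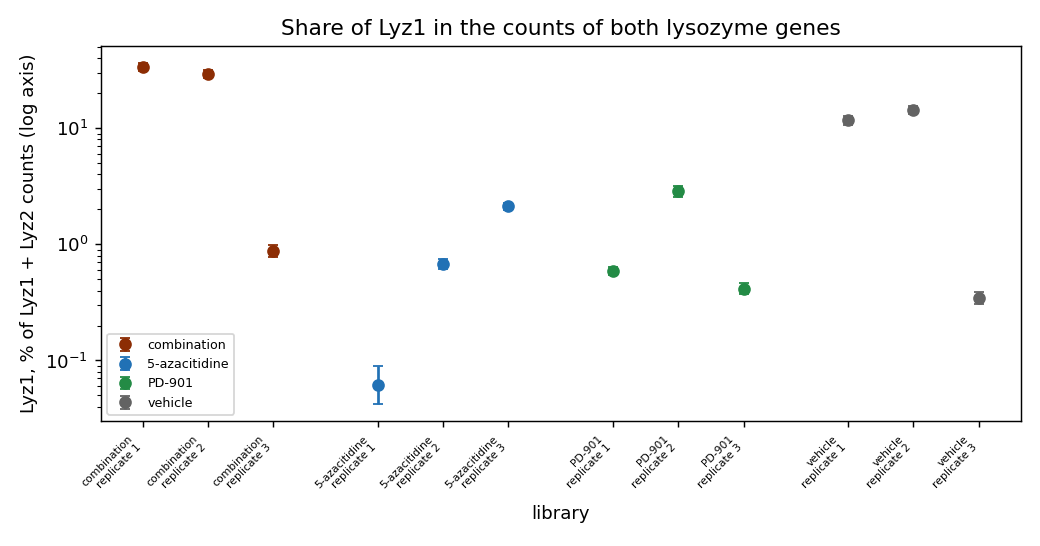
Lyz1 as a percentage of the summed Lyz1 and Lyz2 counts in each of the 12 libraries, on a log axis, with 95% Wilson intervals that cover counting error. The share is 33.9% and 29.2% in combination replicates 1 and 2 and 11.7% and 14.4% in vehicle replicates 1 and 2, and at most 2.86% in the other 8 libraries.

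Other myeloid genes did not share this spread between mice of a group. For 63 genes of 6 myeloid lists with a mean of at least 5 CPM, the highest library of a group was divided by the lowest. In the combination this ratio was 25.6 for Lyz2 and 2.27 for Lyz1, against a median of 1.59 and a maximum of 2.64 (Il1b) for the listed genes, and 0 of 10423 other genes of that level had a wider ratio than Lyz2. In vehicle it was 22.0 for Lyz2 and 2.24 for Lyz1, against a median of 1.74 and a maximum of 7.06 (the complement gene C1qb), and 8 other genes were as wide as Lyz2. These were Apol11b, Gm8210, Gm8741, Lipg and the Y-linked Ddx3y, Eif2s3y, Kdm5d and Uty, named because of these values. In PD-901 it was 5.98 for Lyz2 and 2.31 for Lyz1, against a median of 1.44 and a maximum of 2.33 (Retnlg), with 9 other genes as wide as Lyz2, Xist among them.

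The 5-azacitidine group was the reverse. Its ratio was 1.88 for Lyz2, within the range of the listed genes (median 1.77), and 22.8 for Lyz1, above the widest of them (Il1b, 16.8). The 5 other genes as wide as Lyz1 there were Ccr7, Gm8741, Ptgs2, Vnn3 and Xist, which are named because of these values. The direction also differed from gene to gene: the granule gene Ltf (lactoferrin) stood at 13530 and 9396 CPM in vehicle replicates 1 and 2 and at 6211 CPM in vehicle replicate 3, the opposite of Lyz2. The M-CSF receptor gene Csf1r, a monocyte marker, stood at 299 and 319 CPM in vehicle replicates 1 and 2 and at 446 CPM in replicate 3.

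**Figure D3:**
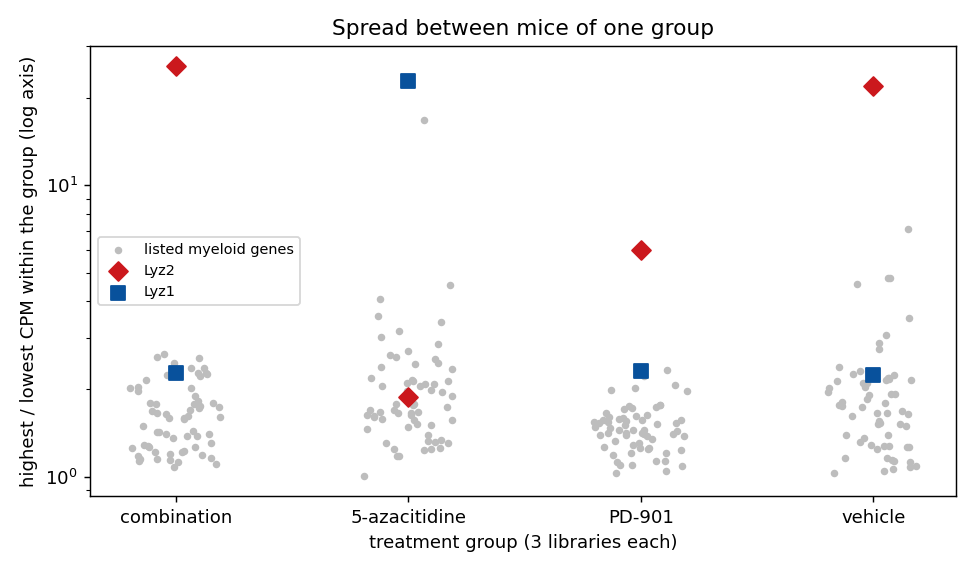
Highest over lowest CPM among the 3 libraries of each group, on a log axis, for Lyz2 (diamonds), Lyz1 (squares) and 63 listed myeloid genes (grey points). Lyz2 lies above every listed gene in the combination (25.6), PD-901 (5.98) and vehicle (22.0), and Lyz1 does so in 5-azacitidine (22.8).

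Against this, the listed myeloid genes were compared between the groups by edgeR's quasi-likelihood test over all 17475 tested genes, in which 64 of the 65 listed genes passed the filter on low counts and Trem1 did not. With the combination 6 of the 64 rose and 27 fell relative to vehicle, where 5.78% of all tested genes were called higher and 7.97% lower. The median log2 change was -0.77 over the listed genes and 0.01 over all tested genes. The lists are described by counts and medians and got no test of their own.

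Of 7 neutrophil primary granule genes, which are expressed in promyelocytes, 6 rose with the combination (median log2 change 0.72). The serine protease Ctsg stood at 664, 675 and 398 CPM in the combination libraries and at 241, 249 and 399 CPM in the vehicle libraries (log2 change 0.97 ± 0.24 SE, edgeR adjusted p = 0.0153). Combination replicate 3 and vehicle replicate 3 were level in Ctsg. Prtn3, Ms4a3 and Elane rose by 0.90, 0.84 and 0.72 (edgeR adjusted p = 0.0296, 0.0251 and 0.0297). Of 19 alternative fits, Ctsg was called in 15, Ms4a3 and Elane in 14 and Prtn3 in 13.

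Of 10 secondary granule genes 2 fell with the combination, the collagenase Mmp8 (-1.65 ± 0.33, edgeR adjusted p = 0.00748) and the peptidoglycan recognition protein Pglyrp1 (-0.77 ± 0.24, adjusted p = 0.0456). Ltf and the siderophore binder Lcn2 did not pass, with changes of -0.74 and -0.66 (edgeR adjusted p = 0.0713 and 0.112). Of the 13 tested mature neutrophil genes 10 fell (median -1.41). The resistin-like Retnlg stood at 353, 501 and 440 CPM in the combination libraries and at 2947, 2142 and 1452 CPM in the vehicle libraries (log2 change -2.34 ± 0.35, edgeR adjusted p = 0.00318). The stefin Stfa2l1, the formyl peptide receptor Fpr1 and the gelatinase Mmp9 fell by 2.89, 1.73 and 1.69 (adjusted p = 0.0029, 0.00337 and 0.00402). Pglyrp1 was called in 11 of 19 alternative fits, and Mmp8 and these mature neutrophil genes in 18.

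Of 12 monocyte genes 8 fell with the combination (median -0.99). Csf1r stood at 147, 189 and 109 CPM in the combination libraries and at 299, 319 and 446 CPM in the vehicle libraries (log2 change -1.26 ± 0.26, edgeR adjusted p = 0.00841). The transcription factor Irf8 and the fractalkine receptor Cx3cr1 fell by 1.14 and 1.89 (edgeR adjusted p = 0.00605 and 0.00678). Of 14 macrophage genes 4 fell (median -1.01): the F4/80 gene Adgre1 (-1.27), the receptor kinase Axl (-1.55) and the complement genes C1qb (-2.54) and C1qa (-2.29), with edgeR adjusted p = 0.0161, 0.0223, 0.0389 and 0.0401. Of 19 alternative fits, C1qa and C1qb were each called in 7, Axl in 14, Adgre1 in 15, Cx3cr1 in 17 and Irf8 and Csf1r in all 19.

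The 8 listed transcription factors act in myeloid cells, and PU.1 and C/EBP proteins are known regulators of lysozyme genes. Spi1, which encodes PU.1, stood at 301, 333 and 260 CPM in the combination libraries and at 600.4, 458 and 477 CPM in the vehicle libraries (log2 change -0.78 ± 0.16, edgeR adjusted p = 0.00744). Cebpa fell by 0.65 and Cebpd by 0.88 (adjusted p = 0.00917 and 0.0109). Cebpb (-0.89), Cebpe (-0.33), Runx1 (-0.30), Gfi1 (0.27) and Myb (0.03) did not pass (edgeR adjusted p = 0.0702, 0.298, 0.218, 0.467 and 0.921). Within the combination the 3 libraries differed at most 1.40-fold in any of the 8 factors, and within vehicle at most 1.52-fold. Lyz2 differed 25.6-fold and 22.0-fold in these groups. Whether the factors bear on the spread of Lyz2 was not tested.

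**Figure D4:**
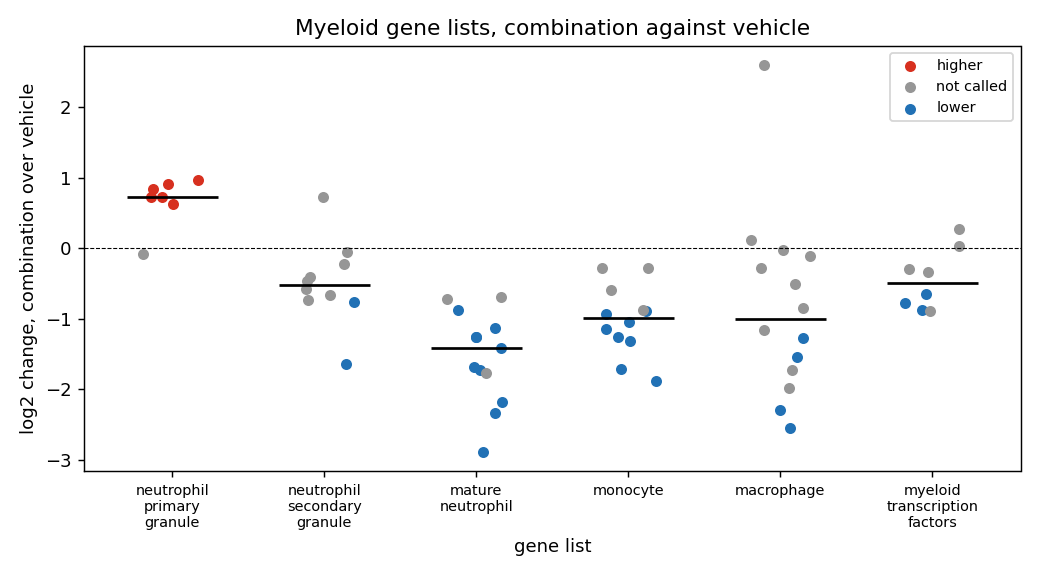
Log2 change of combination over vehicle for the 64 tested genes of 6 myeloid lists, coloured by the edgeR call, with a bar at each list's median and a dashed line at 0. Primary granule genes lie above 0 in 6 of 7 cases (median 0.72) and mature neutrophil genes below it (median -1.41).

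Markers of some other cells moved with the combination too. The erythroid list summed to 2632 to 8055 CPM in the combination libraries and 1582 to 2475 CPM in the vehicle libraries, with 11 of its 11 tested genes higher. The B lineage list summed to 88.3 to 201 CPM with the combination and 367 to 391 CPM with vehicle, with 8 of 9 genes lower, and the dendritic list to 52.2 to 79.9 CPM with the combination and 186 to 324 CPM with vehicle, with 6 of 7 lower. The T and NK list had 1 of 9 genes lower (median log2 change 0.14) and the stem and progenitor list 1 of 7 (median 0.18). No gene of the erythroid, B lineage and dendritic lists was at 0 in all libraries, and their part in the myeloid counts was not tested. The counts rest on single libraries. For the fits that follow the share of all genes called is not given, so their counts are not read as particular to the lists. No listed gene was higher without vehicle replicate 1, vehicle replicate 2 or combination replicate 1, while 3 were higher without vehicle replicate 3 and 2 without combination replicate 2. Lower were 12 without combination replicate 1 and 16 without combination replicate 3. Without the 4 libraries lowest in Lyz2, which leaves 1 mouse in each of these groups whose spread is taken from the others, 0 were higher and 9 lower.

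The single agents gave other counts. With PD-901 alone 0 of the 64 listed genes were called against vehicle by edgeR (0% of all genes higher and 0% lower), with 5 at an unadjusted p under 0.05, near the 4.88% of all genes, and 0 called by DESeq2 (0.0114% of all genes higher and 0.0172% lower) or limma-voom. With 5-azacitidine alone 0 were called (0.00572% of all genes higher and 0% lower), with 20 at an unadjusted p under 0.05 (15.3% of all genes), while DESeq2 called 5 higher and 5 lower (1.67% and 1.84% of all genes) and limma-voom 0. Without 5-azacitidine replicate 2 edgeR called 6 higher and 4 lower, without combination replicate 3 it called 2 and 2, without combination replicate 2 it called 1 and 2, and without vehicle replicate 3 it called 1 higher. The share of all genes called in these left-out fits is not given, so their counts are not read as particular to the lists. The 5 genes that DESeq2 called lower with 5-azacitidine were the monocyte genes Ccr2, Fn1, Irf8, Klf4 and Cx3cr1, and the 4 that edgeR called lower without 5-azacitidine replicate 2 were Csf1r, Fn1, Irf8 and Cx3cr1, all named for these calls. Over all libraries edgeR called no monocyte gene with either agent, and the fitted changes lay below 0 in 12 of 12 genes under PD-901 (median -0.50) and in 12 of 12 under 5-azacitidine (median -0.78), in comparisons that share the vehicle libraries. Lyz2 was at a higher mean with each single agent than with vehicle, with overlapping libraries.

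Between the combination and PD-901, 1 listed gene rose and 17 fell (1.69% and 5.12% of all genes), 12 of them among the 13 tested mature neutrophil genes. Between the combination and 5-azacitidine 0 rose and 8 fell (0.252% and 1.07%), 5 of them mature neutrophil genes. For PD-901 the count of lower genes was 11 without PD-901 replicate 1 and 8 without combination replicate 1, and that of higher genes was 0 without any 1 of PD-901 replicates 1 to 3, 5-azacitidine replicate 1, vehicle replicate 2 or combination replicates 1 and 2, and 2 without 5-azacitidine replicate 3 or combination replicate 3. For 5-azacitidine the count of lower genes was 0 without 5-azacitidine replicate 2, 5-azacitidine replicate 3 or combination replicate 1, 1 without combination replicate 3, 4 without vehicle replicate 2, 5 without PD-901 replicate 2, 13 without vehicle replicate 1 or combination replicate 2 and 19 without vehicle replicate 3. The interaction of the drugs, the departure from additivity on the log scale, was called in 0 listed genes by edgeR and limma-voom, with 30 at an unadjusted p under 0.05 in edgeR (10.7% of all genes), while DESeq2 called 1 higher and 13 lower (0.429% and 1.22% of all genes), and edgeR 5 lower without 5-azacitidine replicate 1. By edgeR 0% of all genes were called for the interaction in either direction over all libraries. The share of all genes called without a library is not given, so the counts of those fits are not read as particular to the lists.

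Likeness to Lyz2 was measured as Pearson's r of log2 CPM over the 12 libraries, a description with no p in which 4 low libraries weigh heavily. Over the 63 listed myeloid genes r ran from -0.43 (the coagulation factor gene F13a1) to 0.75 (C1qa), with a median of 0.32. The macrophage list came closest, with a median of 0.60 over 13 genes, and the primary granule list had a median of -0.10. This order rests on the 4 low libraries: over the other 8 the macrophage median was 0.08, below those of the monocyte list (0.46), the transcription factors (0.34) and the mature neutrophil list (0.32). Lyz1 itself had r = -0.35 (Spearman's rho -0.16).

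The genes most like Lyz2 were found outside the lists. Prg2, the major basic protein of eosinophil granules, had the highest r of 10423 genes (0.92, rho 0.80). It stood at 128, 94.5 and 316 CPM in the combination libraries, 509, 533 and 516 CPM in the 5-azacitidine libraries, 307, 273 and 404 CPM in the PD-901 libraries and 232, 198 and 504 CPM in the vehicle libraries. The 4 libraries lowest in Lyz2 were also the lowest in Prg2. As Prg2 was picked by its r over these same libraries, this adds nothing to that r. Without combination replicates 1 and 2, the libraries farthest from the median of Lyz2, r was 0.83, and over the 8 libraries other than the 4 lowest it was 0.55.

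Next came Naxe, an epimerase that repairs damaged NADPH (0.91), and Prg3, a homologue of Prg2 (0.89). They were followed by the gene model Gm6900 (0.89), the eosinophil ribonuclease Ear1 (0.88), Phf23 (0.85) and the eosinophil peroxidase Epx (0.85). The lipoxygenase Alox15 (0.81), Ubald2 (0.80) and the gene model Gm8113 (0.79) completed the 10. Epx stood at 48.4, 49.2 and 110 CPM in the combination libraries and at 91.8, 79.8 and 187 CPM in the vehicle libraries. Over the 8 libraries other than the 4 lowest, r was 0.66 for Naxe, 0.56 for Ear1, 0.43 for Phf23, 0.36 for Alox15, 0.34 for Prg3 and Epx, 0.25 for Gm8113, 0.21 for Ubald2 and 0.16 for Gm6900.

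With the group means removed, the highest values were those of Ezr, which encodes ezrin, a linker of membrane and actin (0.96), the DNA polymerase gene Polk (0.92), Prg2 (0.92), Ssbp2 (0.90) and Mta2 (0.89). Polk, Ssbp2 and Mta2 had r of -0.06, 0.36 and 0.16 before the group means were removed. Over the 8 libraries other than the 4 lowest in Lyz2, with group means kept, r was 0.65 for Ezr and 0.17 for Polk. It was -0.08 for Ssbp2 and -0.05 for Mta2. The lowest r belonged to Mmab, an enzyme of vitamin B12 metabolism, at -0.94 (rho -0.98), followed by Adgrl4 (-0.85), Tmem87a (-0.83), Fam76b (-0.82) and Etnk1 (-0.81). Mmab stood at 14.5, 14.2 and 10.1 CPM in the combination libraries and at 10.6, 11.2 and 8.60 CPM in the vehicle libraries, and its r was -0.88 over the 8 libraries other than the 4 lowest in Lyz2. Over the same 8 libraries r was weaker for the others: -0.41 for Adgrl4, -0.48 for Tmem87a, -0.51 for Fam76b and -0.30 for Etnk1.

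**Figure D5:**
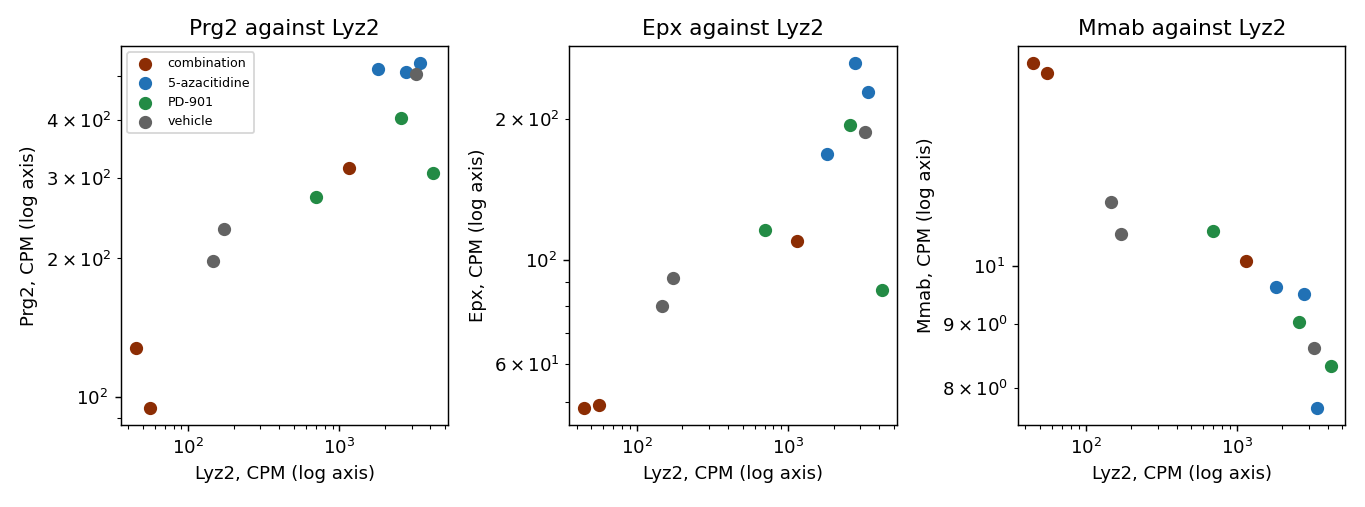
Prg2, Epx and Mmab against Lyz2 in CPM, both axes logarithmic, 1 point for each of the 12 libraries coloured by group. Prg2 and Epx are lowest in combination replicates 1 and 2, and Mmab is highest there, at 14.5 and 14.2 CPM.

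Genes near the lysozyme genes varied less than Lyz2 between mice of the combination, PD-901 and vehicle groups, though not less than Lyz1 in every group. Of 31 other genes annotated within 500 kb of Lyz2 or Lyz1, 11 had enough counts to be tested. Yeats4, a chromatin reader whose centre lies 60.0 kb from that of Lyz2, stood at 86.2, 68.8 and 73.3 CPM in the combination libraries and at 78.3, 71.6 and 68.2 CPM in the vehicle libraries. Cpsf6, a subunit of the cleavage factor for mRNA 3′ ends on the other side at 82.5 kb, stood at 179, 159 and 158 CPM in the combination libraries and at 131, 143 and 126 CPM in the vehicle libraries. In vehicle the ratio of highest to lowest library was at most 2.69 among the 11 neighbours (4933412E12Rik), and in PD-901 at most 1.92 (Cpm). In 5-azacitidine 4933412E12Rik (4.41) and Cpm (3.19) were wider than Lyz2 (1.88).

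Of these 11 neighbours 2 rose with the combination, the chaperonin gene Cct2 (log2 change 0.58 ± 0.14, edgeR adjusted p = 0.0134) and the nucleoporin gene Nup107 (0.42 ± 0.11, adjusted p = 0.0219). Over all tested genes 5.78% were called higher and 7.97% lower. Counts of 2 higher and 1 lower among 11 genes are too few to be set apart from these shares, and nothing is read from them. The neighbour called lower was the carboxypeptidase gene Cpm (-2.52 ± 0.57, edgeR adjusted p = 0.0118). It stood at 1.68, 5.30 and 0.789 CPM in the combination libraries and at 13.9, 16.7 and 13.6 CPM in the vehicle libraries. Its ratio of 6.72 was the widest among the neighbours within the combination. Rab3ip (-0.36), 4933412E12Rik (-0.28), Gm5781 (0.46), Frs2 (0.20), Yeats4 (0.07), Cpsf6 (0.31), Mdm2 (-0.27) and Slc35e3 (-0.06) did not pass, with edgeR adjusted p of 0.0934 for Cpsf6 and above for the others.

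Other members of the lysozyme family were near or at 0. Of 8 relatives looked up, Lyzl4, Spaca3, Spaca5, Lyg1 and Lyg2 had 0 counts in all libraries, which allows up to 3 counts in a library, or 0.195 CPM in the smallest. Lyzl6 had 1 count and Lyzl1 had 2 counts over the 12 libraries, and Lalba, the alpha-lactalbumin gene, had 30. None of the 8 reached 1 CPM in any library, where Lyz2 and Lyz1 did so in all 12.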

How the data were processed

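RNA of bone marrow cells from 12 mice was sequenced in pairs of reads after a low-input library kit, per the labels' protocols. The table the authors deposited gives whole-number counts for each gene, without normalization, and the summed exon length in bases. STAR 2.7.2a, Subread 1.6.5, featureCounts, bcl2fastq and build mm10 appear in the submitters' processing notes. The sources used here do not give read length, strand setting or the handling of reads that match several places, which bear on how counts were split between Lyz2 and Lyz1. Of 56350 identifiers, 55094 are in GENCODE M21, used for exons and transcripts. The series' design calls the samples of a group independent mice, and replicate numbers only name them.

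Tests used edgeR 4.0.16 under R 4.3.3: filterByExpr (minimum count 10), TMM (factors 0.929 to 1.07), 1 mean for each group over all 12 libraries, robust quasi-likelihood F tests, two-sided, and Benjamini-Hochberg adjustment over 17475 genes with a threshold of 0.05. Log2 CPM used a prior count of 2. The code was tested on simulated data. No pair of libraries looked like a repeat of 1 library: chi-square over degrees of freedom was 20.1 to 72.9 within groups. DESeq2 1.42.0 and limma-voom 3.58.1, other filters and scalings and left-out libraries were alternatives.

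The members, gene lists and motifs were chosen with earlier results of these data known. Named genes are up to 4 of each myeloid list by lowest p in combination against vehicle, all listed transcription factors, tested genes within 500 kb, and the genes most and least like Lyz2 or Lyz1 of at least 5 CPM. Other names, such as the sex-linked genes, Ltf within vehicle or Il1b, were chosen after their values were seen. Some genes that the rule names are not reported here.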

Additional observations from a re-analysis of the deposited data

How the results depend on the processing

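Lyz2 and Lyz1 differences between groups moved by less than 1 SD between mice without TMM, with DESeq2 size factors, as ratios of arithmetic means and, for Lyz2, with the counts of both genes summed, but that SD reaches 2.56 on the log2 scale for Lyz2. As ratios of arithmetic means the Lyz2 differences were -1.50 for combination minus vehicle, 1.07 for PD-901 minus vehicle, 1.17 for 5-azacitidine minus vehicle, -2.57 for combination minus PD-901 and -2.67 for combination minus 5-azacitidine. Lyz1 turned sign as a ratio of arithmetic means for 5-azacitidine minus vehicle (0.12) and combination minus 5-azacitidine (-0.18). Leaving out 1 library at a time, the log2 difference of Lyz2 ran from -3.11 to -0.16 for combination minus vehicle, 1.39 to 3.62 for PD-901 minus vehicle, 1.79 to 4.01 for 5-azacitidine minus vehicle, -5.28 to -2.95 for combination minus PD-901 and -5.68 to -3.34 for combination minus 5-azacitidine. For Lyz1 the ranges in the same order were -0.44 to 0.32, -0.43 to 0.29, -1.53 to 0.70, -0.36 to 0.39 and -0.77 to 1.47. Counts of myeloid list genes called depended more on the setting, and the cause was not tested. Without any filter on low counts they were 1 lower for PD-901 against vehicle, 7 higher and 7 lower for 5-azacitidine against vehicle, 5 and 30 for combination against PD-901, 24 lower for combination against 5-azacitidine and 2 and 18 for the interaction. DESeq2 gave 5 and 5 for 5-azacitidine against vehicle (1.67% and 1.84% of all genes) and 3 and 29 for combination against PD-901 (4.37% and 8.31%). It gave 25 lower for combination against 5-azacitidine (4.35%) and 1 and 13 for the interaction (0.429% and 1.22%). The share of all genes rose too, from 1.07% lower with edgeR to 4.35% with DESeq2 for combination against 5-azacitidine. For the other settings and left-out libraries, here and above, the share of all genes called is not given, so those counts are not read as particular to the lists. Fits of only the groups compared gave 1 lower for 5-azacitidine against vehicle, 2 and 32 for combination against PD-901 and 1 lower for combination against 5-azacitidine. Without the 4 libraries lowest in Lyz2 the counts were 0 and 9 for combination against vehicle, 2 lower for 5-azacitidine against vehicle, 0 and 11 for combination against PD-901, 5 lower for combination against 5-azacitidine and 4 lower for the interaction; Ctsg then had a log2 change of -0.00245 and Myb of -0.195. Myb also changed sign without combination replicate 1 (-0.0217) or combination replicate 2 (-0.0402), and without 1 library it was at most 0.144, without combination replicate 3. Over the fits without 1 library the myeloid counts higher and lower ran from 0 to 6 and 12 to 30 for combination against vehicle, 0 to 6 and 0 to 4 for 5-azacitidine against vehicle, 0 to 2 and 8 to 22 for combination against PD-901, and 0 to 19 lower for combination against 5-azacitidine and 0 to 5 lower for the interaction. No paired analysis was possible because the labels give the mice of different groups no shared numbers. Low counts limit Lyz1 most, with 26 counts in its lowest library.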

Other observations

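Lyz1 had its own set of genes with a like pattern, none of them in the myeloid lists. By Pearson's r of log2 CPM over the 12 libraries, given with no p, genes among the closest were Cfap20 (0.93), Mplkip (0.92), AW146154 (0.90), the splicing gene Zrsr2 (0.90), Pet100 (0.89), 9430038I01Rik (0.89), Nbdy (0.89), Washc3 (0.89) and 2410004B18Rik (0.88). Cfap20, a ciliary protein gene, stood at 34.2, 35.8 and 30.0 CPM in the combination libraries, 22.4, 30.6 and 36.1 CPM in the 5-azacitidine libraries, 32.1, 31.5 and 29.1 CPM in the PD-901 libraries and 30.6, 34.9 and 28.1 CPM in the vehicle libraries. The lowest library for Cfap20 was 5-azacitidine replicate 1, as for Lyz1, and it had the fewest genes with a count (18897). Without that library and combination replicate 3, the libraries farthest from the median of Lyz1, r was 0.81 for Cfap20, 0.79 for Washc3 and 2410004B18Rik, 0.73 for Mplkip, 0.60 for Zrsr2, 0.57 for Pet100 and Nbdy, 0.55 for 9430038I01Rik and 0.51 for AW146154. With the group means removed Mplkip, Tbpl1 and 4833420G17Rik had 0.97 and Osgin2 and Ube2b 0.96, but without the same 2 libraries and with group means kept r was 0.06 for 4833420G17Rik and 0.46 for Ube2b. The lowest r belonged to Taf1c (-0.88), Erbb3 (-0.86), Lsm14b (-0.84), Edc4 (-0.81) and Cog1 (-0.80). Among the listed myeloid genes the highest r to Lyz1 was that of Il1b (0.65, rho 0.37), but it was -0.06 without the same 2 libraries.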
